A study of Mus musculus with 12 samples.

Results

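The response of wild type mouse bone marrow-derived macrophages to apoptotic cells was taken from 6 of the 12 libraries of the series, 3 libraries of macrophages cultured alone (WT) against 3 of macrophages given apoptotic cells (WT+AC). The members were chosen by genotype and treatment on the labels, and no measured value entered the choice. The mice were 6 to 8 weeks old, macrophages were grown from the marrow of their tibiae, and both groups are labelled wild type, with no engineered allele named. The WT libraries are labelled with DMEM holding 10, 10 and 11% fetal bovine serum, a sequence in doubt because it goes on rising by 1 in the libraries that follow. The WT+AC macrophages were kept for 90 min with 5 apoptotic cells per macrophage, the apoptotic cells being Jurkat, a line from human T cell leukaemia, and no serum share is labelled for them. How the Jurkat cells were killed, and whether those not engulfed were washed off before lysis, is not given in the labels. The other 6 libraries are labelled as Kif13b-deficient macrophages (KO and KO+AC), given as Kif13b-/- in the design text and as a knock down in the genotype field, and are used here for the estimate of spread and for 1 comparison near the end, where the Kif13b counts of the libraries labelled KO+AC go against that label. The series asks how macrophage KIF13B bears on efferocytosis through the receptor MERTK, and the comparison below describes the wild type side of that question.

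Efferocytosis is the engulfment of dying cells by phagocytes. Macrophages sense nucleotides and lipids released by the dying cell, bind exposed phosphatidylserine through receptors such as MERTK or through bridging proteins such as GAS6, PROS1 and MFGE8, rearrange actin to engulf the cell, and degrade it in lysosomes. The ingested cholesterol is commonly exported through liver X receptor (LXR) targets, and engulfment of apoptotic cells is classically accompanied by restrained cytokine production. Contact with necrotic material or microbial ligands instead engages pattern receptors and NF-kB, a family of transcription factors held in the cytoplasm by inhibitors that are themselves NF-kB targets.

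Sequencing depth was similar in the groups, at 18256622 to 18461359 counts per WT library and 17000976 to 17256902 per WT+AC library. Counts were seen for 18395 to 18407 of the 54582 shared symbols in WT and for 31788 to 32322 in WT+AC. Processed pseudogenes took 0.200 to 0.210% of counts in WT and 1.75 to 1.997% in WT+AC. The WT libraries stand in one deposited table and the WT+AC libraries in the other, and the tables use different gene naming, so treatment and table cannot be told apart. The labels give 3 samples per group without saying whether they are separate animals or cultures, and each p-value is set against the spread among libraries alone, which may be technical. Libraries within a group differed by more than sampling noise, with a common biological coefficient of variation of 0.0867 in WT and 0.0297 in WT+AC, so none was counted as a duplicate. In bulk RNA, fewer cells of a type and less RNA per cell cannot be told apart. The defining macrophage markers Csf1r, Adgre1, Cd68, Itgam, Spi1, Fcgr1 and Lyz2 were each detected in each of the 6 libraries.

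With apoptotic cells, inflammatory cytokine, chemokine and NF-kB pathway RNAs rose steeply, while RNAs for complement C1q, lysosomal proteins, the respiratory chain and ribosomal proteins fell. The change reached most of the transcriptome. Of 16810 genes tested in edgeR, 8125 were called higher (48.3%) and 6161 lower (36.7%) in WT+AC at an adjusted p under 0.05, 85.0% in all. Under a stricter rule, a change shown to exceed 2-fold, 5282 genes were higher (31.4%) and 2490 lower (14.8%), 46.2% in all. The ranges of the 2 groups were separate for 86.6% of genes. A count of called members in a gene list is therefore read against these shares, and the 2-fold rule separates lists better than the first. The shares include non-coding classes, unlike most list members. Of 2220 processed pseudogenes tested, 2052 were higher and 87 lower, with a median log2 fold change of 5.96. Of 13136 protein-coding genes, 5183 were higher and 5729 lower, with a median of -0.07. Past 2-fold, 2610 protein-coding genes were higher and 2240 lower. The median log2 fold change over all genes tested was 0.25, and scaling by total counts instead of TMM factors put it at 0.66, with 9741 genes higher and 4370 lower. That scaling raises every list median alike, and its value is given beside list medians whose fall shrinks by more than 1.5 times. Genes near 0 in WT could pass the filter on low counts only through WT+AC, and among genes with counts in all 12 libraries 5700 were higher and 5808 lower.

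**Figure D1:**
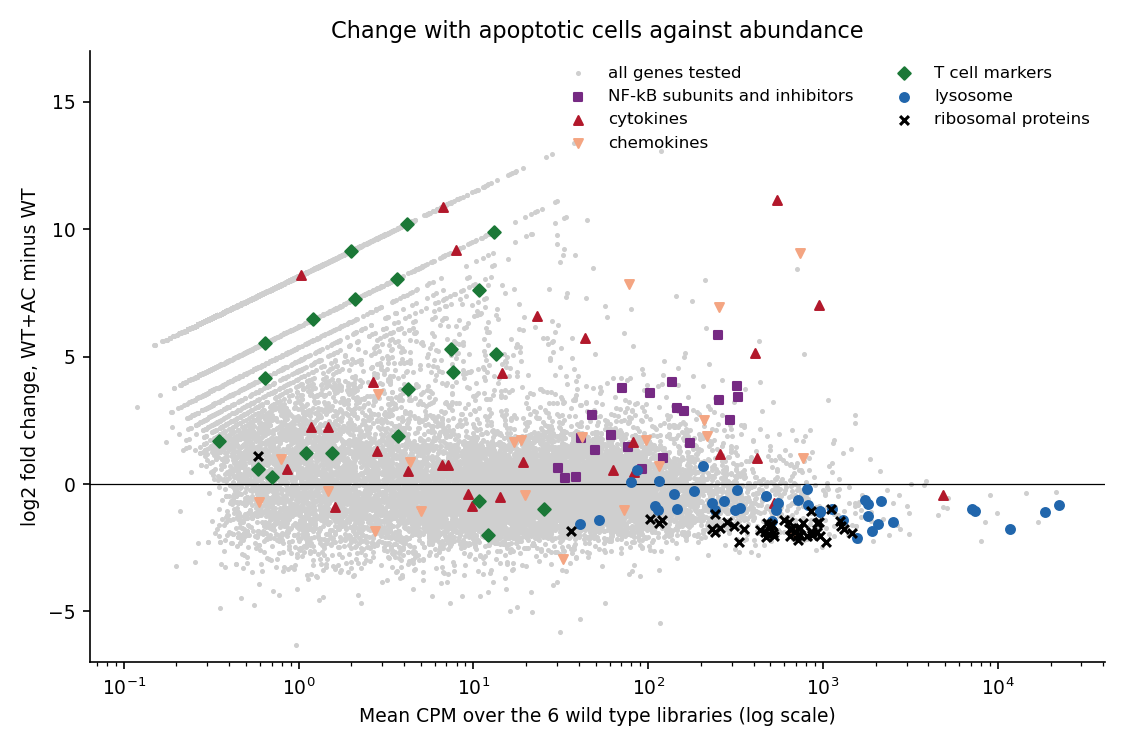
Log2 fold change (WT+AC minus WT) of each of the 16810 genes tested against its mean CPM over the 6 wild type libraries (log scale), with members of 6 gene lists marked by shape and colour. NF-kB genes lie above 0 at moderate abundance, lysosomal and ribosomal protein genes lie mostly below 0 at high abundance, and the parallel streaks at low abundance are genes with 0 to a few counts in WT.

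Change also moved with transcript length. Among 13136 protein-coding genes, the median log2 fold change ran from -1.13 in the eighth with the shortest exonic length (0.204 to 2.02 kb) to 0.78 in the eighth with the longest (9.32 to 123 kb), and Pearson's r with log10 exonic length was 0.245 across genes, which are not independent replicates. For this reason the medians of the main lists are given also from a fit that corrects every library for exonic length and GC content. The correction took the median over all genes tested from 0.25 to 0.03. Whether the length trend is biological was not tested.

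**Figure D2:**
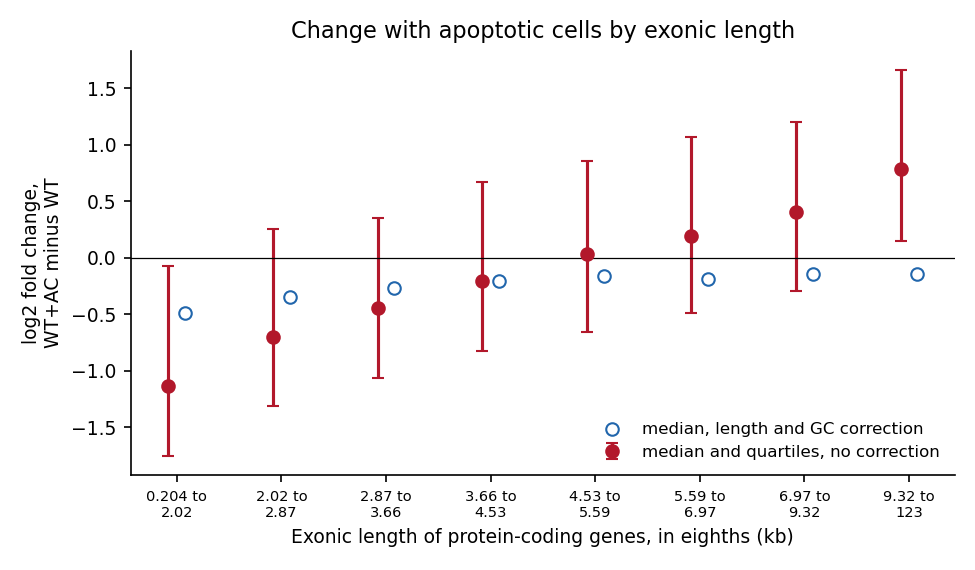
Log2 fold change (WT+AC minus WT) of protein-coding genes in 8 equal groups by exonic length, as median with quartiles (red) and as median after a length and GC correction (open blue). The uncorrected medians climb from -1.13 to 0.78 and the corrected ones from -0.49 to -0.14.

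Pro-inflammatory cytokines were among the steepest rises. Of 29 cytokine and growth factor genes tested, 22 were higher and 6 lower, and 14 passed the 2-fold rule upward and 0 downward, with a median log2 fold change of 1.18 (1.03 with the length correction). Il1b, which encodes the pyrogenic cytokine interleukin 1 beta (chromosome 2, 129364570 to 129371139, minus strand), had 0.419, 0.551 and 0.434 CPM in the WT libraries and 1138, 1014 and 1096 in WT+AC. No WT+AC library came near the WT range, and the log2 fold change was 11.15 (SE 0.15, n = 3 each, edgeR adjusted p = 1.48e-28). Each SE in this text is the absolute log2 change divided by the square root of the F statistic of its test. It can be smaller than the counting error where a group is near 0 counts, as Il1b was in WT. Tnf, the tumour necrosis factor gene (chromosome 17, 35199381 to 35202007, minus strand), had 14.1, 14.7 and 14.4 CPM in the WT libraries and 1914, 1774 and 1964 in WT+AC. Here too the groups were far apart relative to their spread (log2 7.03, SE 0.11, edgeR adjusted p = 5.35e-27). Il1a, the alarmin interleukin 1 alpha, had 18.9, 25.3 and 23.4 CPM in the WT libraries and 816, 756 and 791 in WT+AC, a log2 change of 5.13. The 2 subunits of interleukin 12 were close to absent without apoptotic cells. Il12a had 0 counts in each WT library and 242, 239 and 318 counts with apoptotic cells, at least 72.9-fold higher against a floor of 3 counts per library. Il12b had 0, 1 and 0 counts against 322, 273 and 349. Lif (log2 6.59), the activin subunit Inhba (5.74), Il27 (4.37) and the neutrophil growth factor Csf3 (4.01) also rose past 2-fold. Il6 rose from a low level, at 0.300, 0.734 and 0.496 against 2.54, 2.24 and 2.49 CPM. The interleukin 1 antagonist Il1rn (log2 1.03) and the anti-inflammatory cytokine Il10 (1.28) rose as well, and neither was shown to pass 2-fold. Tgfb1, often linked to efferocytosis, rose from 158 ± 16.9 to 359 ± 3.54 CPM (SD, n = 3 each), a log2 change of 1.18. The members that fell were Fgf2, Il18, Igf1, Hgf, Spp1 and Vegfc, with log2 changes from -0.91 to -0.40, and those of Il18, Spp1 and Vegfc were positive with the length correction (log2 0.27, 0.49 and 0.11).

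**Figure D3:**
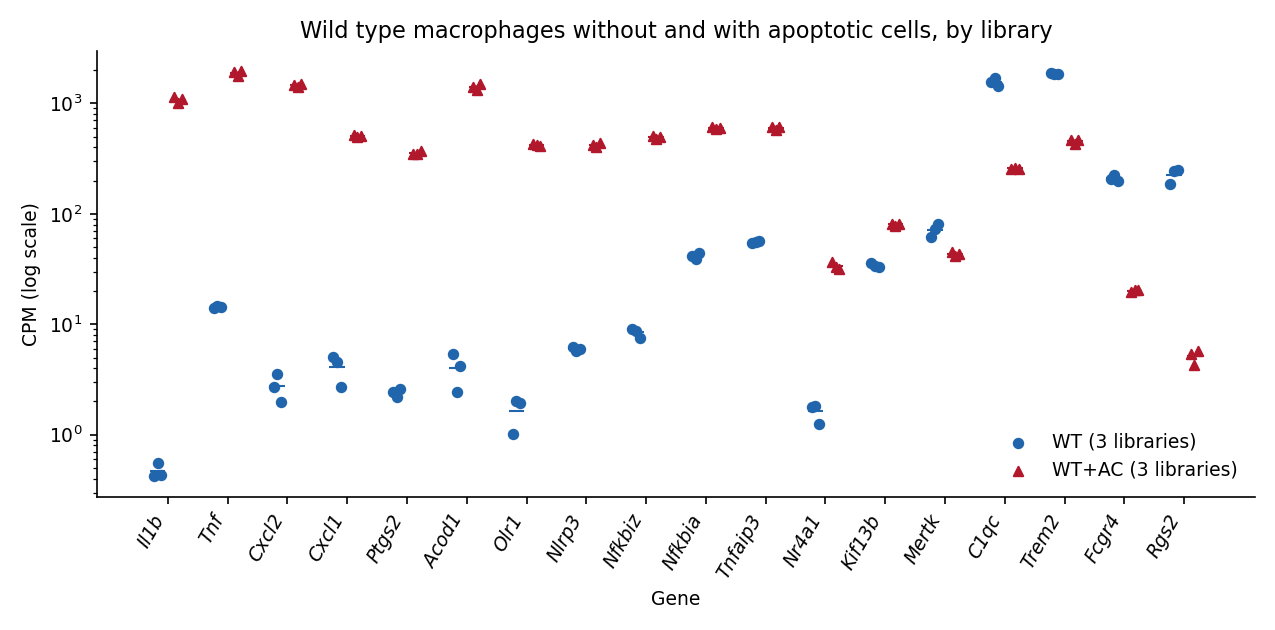
CPM on a log scale of 18 genes in each of the 3 WT (blue circles) and 3 WT+AC (red triangles) libraries, with horizontal ticks at the group means. For each gene shown the groups are separate, the first 13 higher with apoptotic cells and the last 5 (from Mertk to Rgs2) lower.

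Neutrophil and monocyte attractants were among the chemokine RNAs that rose, and Cxcl12 and Ccl6 fell. Of 22 tested, 14 were higher and 6 lower, 10 and 2 past 2-fold (14 higher and 2 lower length-corrected), with a median of 1.01 (1.51 length-corrected). Cxcl2, a ligand of the neutrophil receptor CXCR2 (chromosome 5, 90903871 to 90905938, plus strand), had 2.70, 3.55 and 1.98 CPM in the WT libraries and 1478, 1410.5 and 1504 in WT+AC. Its neighbour Cxcl1 (chromosome 5, 90891241 to 90893115, plus strand) had 5.09, 4.59 and 2.73 CPM in the WT libraries and 517, 499.6 and 502 in WT+AC. Both separated completely from WT (log2 9.06, SE 0.15, and 6.93, SE 0.14). Cxcl3 followed (log2 7.84), while the inflammatory chemokines Ccl3 (2.53), Ccl4 (1.83) and Ccl5 (1.66) and the monocyte attractants Ccl2 (1.74) and Ccl7 (1.75) rose by less. In the other direction Cxcl12, a retention signal made by stromal cells, went from 57.9 ± 6.04 to 7.49 ± 0.904 CPM (log2 -2.95), beside a fall in the stromal marker sum given further on. Ccl6 fell by 1.96 on the log2 scale.

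Each of the 21 tested genes for NF-kB subunits, inhibitors and upstream regulators was called higher and 16 passed 2-fold, against backgrounds of 48.3% and 31.4%. The median log2 fold change was 2.52 (2.20 length-corrected), and the summed level of the list was 778 to 860.3 CPM in WT and 4690.2 to 4928 CPM in WT+AC. The largest 3 rises of the list were in IkB family genes. Nfkbia, which encodes the inhibitor IkB alpha (chromosome 12, 55489410 to 55492647, minus strand), had 41.2, 39.2 and 43.7 CPM in the WT libraries and 606, 589.8 and 602 in WT+AC. That was a log2 change of 3.86 (SE 0.10, edgeR adjusted p = 1.23e-22), with no overlap of the groups. The nuclear IkB protein gene Nfkbiz had 9.11, 8.75 and 7.56 CPM in the WT libraries and 503, 473 and 500.4 in WT+AC (log2 5.86), and Nfkbie rose by 4.01. Tnfaip3, encoding the ubiquitin-editing brake A20, had 54.5, 55.2 and 57.1 CPM in the WT libraries and 606, 572 and 614 in WT+AC, a change of 3.42. Among subunits, Rel (3.56), Nfkb1 (3.30), Nfkb2 (2.85) and Relb (1.81) rose past 2-fold and Rela, the constitutive one, reached 1.02 without passing that rule. Cyld and Ikbkb had small rises that turned to falls with the length correction (log2 -0.48 and -0.76), so the count of 21 higher rests in part on that choice, under which 19 members were higher and 2 lower.

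Because this pathway moved together, promoters of its members were searched for the letters of an NF-kB site. Windows were the RefSeq promoters of GRCm38.p6, 250 bases before to 50 after a start, searched on both strands with the common NF-kB consensus. Of the 21 genes, 16 had a window, some with several starts, and 12 of 21 windows (57.1%) held a match, against 4.51% of all 32851 windows. Windows of the same gene are not independent. Nfkb2 gave 3 windows, each with a match, and some of these overlap and share a site. Among cytokines and chemokines past 2-fold, 5 of 18 windows (27.8%) held one, and among all genes past 2-fold upward 7.32%. Below are 4 of the windows, chosen because they show matched sites in 2 inhibitors and 2 chemokines of the response, in lower case with the matched letters in capitals, 5′ to 3′ on the gene's strand. They are Nfkbia at chr12:55492598-55492897 (minus strand), Tnfaip3 at chr10:19015361-19015660 (minus), Cxcl1 at chr5:90890995-90891294 (plus) and Cxcl2 at chr5:90903649-90903948 (plus).
Nfkbia: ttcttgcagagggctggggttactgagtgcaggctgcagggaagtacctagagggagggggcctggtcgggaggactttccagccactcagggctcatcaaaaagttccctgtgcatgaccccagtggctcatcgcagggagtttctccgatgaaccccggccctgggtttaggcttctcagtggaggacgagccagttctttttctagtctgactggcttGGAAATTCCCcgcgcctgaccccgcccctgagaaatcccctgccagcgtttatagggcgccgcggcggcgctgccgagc
Tnfaip3: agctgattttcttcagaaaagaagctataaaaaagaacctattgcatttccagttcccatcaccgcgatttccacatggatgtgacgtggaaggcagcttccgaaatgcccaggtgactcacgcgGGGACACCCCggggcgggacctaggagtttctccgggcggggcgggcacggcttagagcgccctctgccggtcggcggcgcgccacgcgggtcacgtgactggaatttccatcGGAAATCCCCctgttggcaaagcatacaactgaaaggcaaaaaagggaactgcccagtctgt
Cxcl1: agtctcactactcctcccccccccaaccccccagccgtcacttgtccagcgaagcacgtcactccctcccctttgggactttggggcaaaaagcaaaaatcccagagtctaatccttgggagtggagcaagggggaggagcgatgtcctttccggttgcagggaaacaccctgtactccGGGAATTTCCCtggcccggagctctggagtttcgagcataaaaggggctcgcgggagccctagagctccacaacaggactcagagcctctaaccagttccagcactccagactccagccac
Cxcl2: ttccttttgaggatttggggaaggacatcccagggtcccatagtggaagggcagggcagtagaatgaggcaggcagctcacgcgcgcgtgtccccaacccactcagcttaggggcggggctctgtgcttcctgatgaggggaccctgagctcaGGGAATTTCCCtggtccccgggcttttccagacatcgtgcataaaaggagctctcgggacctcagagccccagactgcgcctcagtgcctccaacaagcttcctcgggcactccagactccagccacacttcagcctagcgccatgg
Cxcl1 and Cxcl2 held the same capital letters, where 2 matches overlap. The windows of Il1b, Tnf, Acod1 and Ptgs2 held no match to these letters in their 300 bases. A match describes letters, and binding was not measured.

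Immediate early transcription factors split into a rising and a falling set. Of 33 tested, 23 were higher and 6 lower, with 13 and 2 past 2-fold and a median of 0.89 (0.79 length-corrected). The orphan nuclear receptor Nr4a1 had 1.80, 1.84 and 1.24 CPM in the WT libraries and 36.8, 33.3 and 31.7 in WT+AC, and Nr4a3 had 1, 0 and 0 counts against 234, 262 and 272. Both were clear of their WT values (log2 4.38 for Nr4a1). Egr3 (4.01), Fosb (3.50), Maff (3.41) and Klf2 (2.71) rose too. Fos went the other way, at 43.5, 41.7 and 47.7 against 15.1, 13.4 and 15.4 CPM (log2 -1.60), as did the stress factor Atf3 at 857, 840.5 and 859.7 against 243, 242 and 254 CPM (-1.79). Jun fell by 0.69 and was not past 2-fold. Of the 23 factors called higher, 17 had a promoter window, with 4 windows for Csrnp1 and 3 for Maff, which are not independent. TGACG, the core of the cAMP response element TGACGTCA, lay in 16 of 22 windows (72.7%) on either strand, against 20.8% of all windows. That core lay in 24.1% of windows of all genes past 2-fold upward and in 29.4% of those past 2-fold downward. The whole TGACGTCA element, which contains that core, lay in 2 of 22 (9.09% against 1.79%) and the NF-kB site in 5 (22.7% against 4.51%). The AP-1 element TGANTCA lay in 1 (4.55% against 7.81%) and the CArG box of serum response factor in 1 (4.55% against 1.63%). Of 24 cAMP target genes tested, 16 were higher and 6 lower, with a median of 0.78 (0.07 length-corrected, with 11 higher and 11 lower).

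Negative feedback regulators of signalling rose alongside. Among 18 MAP kinase phosphatases, Sprouty and Spred genes tested, 14 were higher and 2 lower (10 and 0 past 2-fold, median 1.40, 1.35 length-corrected). Dusp4 (2.49), Dusp8 (2.61) and Spred1 (2.42) rose most in log2 terms, and Dusp6 and Dusp3 fell (-1.12 and -0.81). Of 14 regulators of mRNA decay, 12 were higher and 2 lower, 6 and 0 past 2-fold (median 0.91, 0.40 length-corrected). Zc3h12a, whose product Regnase-1 cleaves cytokine mRNAs, had 22.7, 16.9 and 15.1 CPM in the WT libraries and 353, 330.0 and 347 in WT+AC (log2 4.23), and its relative Zc3h12c changed by 3.83. Zfp36, a destabiliser of Tnf mRNA, rose by 1.61. Of 20 alternative activation genes tested, 11 were higher and 5 lower, 4 and 2 past 2-fold (median 0.33, 0.19 length-corrected). Among them the cytokine signalling inhibitor Socs3 (4.56), the histone demethylase Kdm6b (5.94), Tgm2 (1.82) and Chil3 (0.80) rose. In contrast Arg1, the arginase of repair-type macrophages, fell from 133 ± 9.90 to 40.0 ± 1.14 CPM.

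Genes of pathogen sensing moved in both directions. Of 31 pattern receptors, adaptors and inflammasome parts tested, 15 were higher and 12 lower, 9 and 5 past 2-fold. Their median was 0.23, beside 0.25 for all genes tested and -0.07 for protein-coding genes. The inflammasome sensor Nlrp3 had 6.17, 5.75 and 6.01 CPM in the WT libraries and 418, 406 and 438 in WT+AC. Its log2 change was 6.14 (SE 0.11), with separate groups. Clec4e, the Mincle receptor for dead-cell and mycobacterial ligands, had 43.2, 45.7 and 41.0 CPM in the WT libraries and 1519.8, 1432 and 1556 in WT+AC, a change of 5.12. Nod2 (4.61) and Tlr2 (3.84) rose, while Tlr4, the endotoxin receptor, fell from 77.6 ± 11.3 to 21.3 ± 2.30 CPM (log2 -1.87) and Pycard, the inflammasome adaptor, fell by 1.40. The TNF superfamily had 11 of 16 members higher and 5 lower (7 and 0 past 2-fold, median 0.74), led among those with more than 3 WT counts by the costimulatory ligand Tnfsf9 (5.73). Icosl, another costimulatory ligand, rose by 5.20.

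Interferon-stimulated genes were lower more often than higher. Of 31 tested, 9 were higher and 17 lower, 3 and 9 past 2-fold, with a median of -0.52 (-0.41 length-corrected). Under total-count scaling 11 were higher and 13 lower, with a median of -0.115. Ifit3 (4.67, 4.90 and 4.09 against 0.965, 0.696 and 0.848 CPM), Oasl1 (log2 -1.53), Oas1a (-1.53), Usp18 (-1.49) and Bst2 (-1.55) fell. The 3 that rose past 2-fold were Irf1 (2.40), Ifi205 (4.94) and Gbp5 (5.97). The interferon-inducible chemokine Cxcl10 was low, at 3.66, 3.06 and 2.48 against 6.20, 5.32 and 5.28 CPM.

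Enzymes of inflammatory mediators were among the largest changes. Acod1, which makes the immunometabolite itaconate, had 5.39, 2.45 and 4.21 CPM in the WT libraries and 1419, 1310.2 and 1495 in WT+AC. The WT libraries were the more variable in relative terms, and the groups were far apart (log2 8.45, SE 0.20). Ptgs2, the inducible cyclooxygenase, had 2.46, 2.20 and 2.60 CPM in the WT libraries and 347, 349 and 368 in WT+AC (log2 7.19), and the prostaglandin E synthase Ptges rose by 3.58. The constitutive cyclooxygenase Ptgs1 (-1.18) and the D2 synthase Hpgds (-1.47) fell, and of 23 eicosanoid genes 5 were higher and 13 lower, 5 and 6 past 2-fold (median -0.47, -0.06 under total-count scaling). Slc7a2, an arginine transporter, rose by 4.71, and Nos2, inducible nitric oxide synthase, had 0, 0 and 1 counts against 29, 23 and 24. Slc7a11, the cystine importer, had 9.23, 9.42 and 10.5 CPM in the WT libraries and 324, 286 and 323 in WT+AC (log2 5.00). It was 1 of 4 higher among 25 oxidative stress genes, of which 18 were lower.

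Receptors and bridging molecules for apoptotic cells moved in both directions, and how far the falls outnumbered the rises depended on the scaling. Of 34 tested, 12 were higher and 18 lower, 8 and 12 past 2-fold, and the downward share of 12 in 34 stands beside 14.8% of all genes. Their median was -0.46 (-0.54 length-corrected), and under total-count scaling 14 were higher and 14 lower, with a median of -0.05. Mertk, the receptor tyrosine kinase at the centre of the series (chromosome 2, 128698956 to 128802894, plus strand), had 62.1, 72.5 and 81.4 CPM in the WT libraries and 45.3, 41.2 and 43.6 in WT+AC. The WT+AC libraries were all lower than the WT ones, the log2 change was -0.73 (SE 0.11, edgeR adjusted p = 8.25e-07), and it was not shown to pass 2-fold. Total-count scaling put the change at -0.32. Its bridging ligands Gas6 (log2 -1.85) and Pros1 (-1.50) and the integrin bridge Mfge8 (-1.16) fell past 2-fold. The related kinase Axl was at 80.5 ± 11.3 and 119 ± 1.46 CPM (log2 0.57).

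Complement C1q, which opsonises dying cells, fell in each of its 3 chains. C1qc had 1556, 1686 and 1449.5 CPM in the WT libraries and 255, 263 and 256 in WT+AC (log2 -2.60, SE 0.12), C1qb fell by 2.47 and C1qa by 2.41. Trem2, a lipid-sensing receptor, had 1893, 1853 and 1839 CPM in the WT libraries and 466, 429 and 467 in WT+AC, and its signalling adaptor Tyrobp fell by 2.22. These values did not overlap between groups. The scavenger receptor Cd36 fell by 0.96, short of the 2-fold rule.

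Against this, a few scavenger and adhesion receptors rose. Olr1, the oxidised LDL receptor LOX-1, had 1.02, 2.02 and 1.92 CPM in the WT libraries and 433, 423 and 410.2 in WT+AC. Its log2 change was 7.99 (SE 0.16, edgeR adjusted p = 1.24e-24). Adgrb1, which encodes the phosphatidylserine receptor BAI1, had 0, 1 and 1 counts in WT and 117, 111 and 100 in WT+AC. The ratio was 135, with an exact 95% binomial interval of 37.0 to 1117 for counting error. Genes of other lineages also went from 0 in WT to a few CPM in WT+AC, such as Bcl11b (8.31 CPM) and Col2a1 (3.49 CPM). The part of Jurkat RNA in the Adgrb1 rise was not tested. The MERTK relative Tyro3 (1.84), the bridge Thbs1 (2.01) and Cd14 (2.17) rose. Lrp1, an engulfment receptor with a long transcript, had a log2 change of 1.74 that shrank to 0.01 with the length correction. Among 21 receptors and enzymes for find-me signals, 8 were higher and 13 lower (6 and 4 past 2-fold, median -0.53, -0.12 under total-count scaling). The purine receptors Adora2a (3.78) and Adora2b (3.02), which raise cAMP, and the lysophospholipid receptor Gpr132 (3.31) rose, while the nucleotide receptors P2ry6 (-1.67) and P2ry12 (-1.71) fell. The actin regulators of engulfment had no common direction, with 12 of 26 higher and 12 lower, and their median changed sign with the length correction (0.13 to -0.29).

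Phagosome and lysosome RNAs fell as groups. Of 41 lysosomal hydrolases, membrane proteins, pump subunits and regulators, 2 were higher and 37 lower. Backgrounds were 36.7% lower among all genes and 5729 of 13136 lower among protein-coding genes. Past 2-fold 10 of the 41 were lower, beside 14.8% of all genes and 2240 of 13136 protein-coding genes. Their median was -0.97 (-0.81 length-corrected, -0.56 under total-count scaling). Their summed level was 127345 to 129486 CPM in WT and 59332 to 61029 CPM in WT+AC. Ctss, the cysteine protease cathepsin S, was at 18019 ± 1792 and 5375 ± 58.5 CPM (log2 -1.75), Lgmn fell by 1.55 and the cathepsin inhibitor Cst3 by 2.12. Tfeb, a master regulator of lysosomal genes, fell by 1.40. The cholesterol exporter of the lysosome Npc1 rose (0.73) without the length correction and was at -0.08 with it. Of 24 genes for LC3 lipidation and phagosome maturation, 2 were higher and 18 lower (median -0.79, -0.39 under total-count scaling). Map1lc3b, an LC3 gene, fell from 324 ± 16.7 to 92.5 ± 0.984 CPM, and Sqstm1, the autophagy receptor p62, rose by 1.63.

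Genes of lipid handling were mostly lower as well. The LXR target and efflux list had 6 of 23 members higher and 13 lower, with a median of -0.38 that turned to 0.02 under total-count scaling. Within it Abca1, the cholesterol exporter, rose (log2 1.38), and its partner Abcg1 (-1.41), Apoe (-2.24) and the lipid sensor Pparg (-1.90) fell. Among 20 markers of lipid-associated macrophages, 17 were lower and 1 higher (8 and 0 past 2-fold, median -1.03, -0.84 length-corrected, -0.62 under total-count scaling). They included the fatty acid binding protein Fabp5 (-1.98) and the lectin Lgals3 (-1.50).

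**Figure D4:**
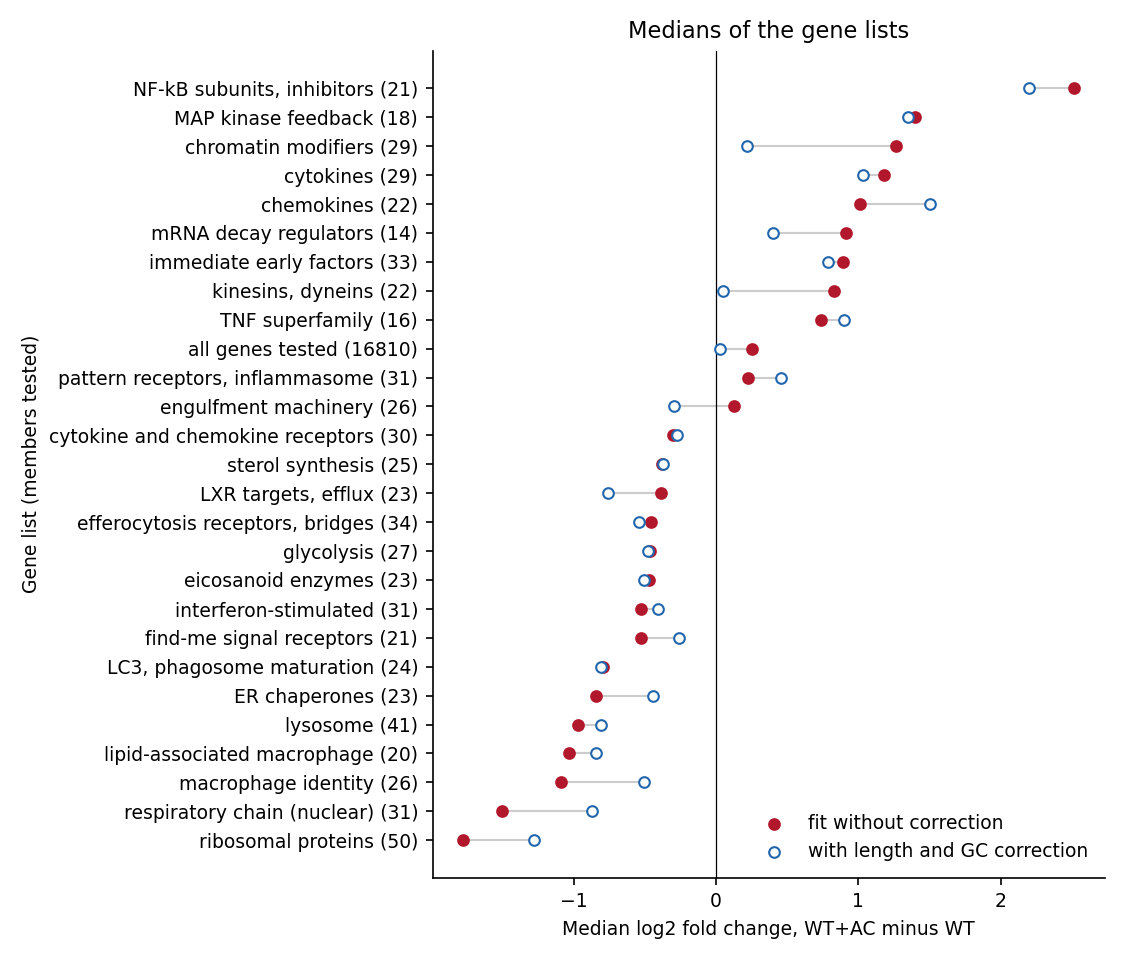
Median log2 fold change (WT+AC minus WT) of 26 gene lists and of all genes tested, without (red) and with (open blue) the length and GC correction, with members tested in brackets. NF-kB genes lie highest and ribosomal proteins lowest under both fits, and chromatin modifiers and kinesins move toward 0 with the correction.

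Macrophage identity genes fell more than they rose, though not all did. Of 26 tested, 5 were higher and 17 lower (1 and 12 past 2-fold), and the median of -1.09 moved to -0.50 with the length correction and to -0.69 with total-count scaling. The summed level was 56239 to 58570.1 CPM in WT and 25418 to 26849 CPM in WT+AC. In WT most of that sum came from Lyz2 and Lgals3, so the sum mainly follows these genes. Lyz2 had 444444, 404886 and 386588 counts in WT and 180108, 173049 and 182790 in WT+AC. Lgals3 had 212474, 202441 and 196680 against 87867, 84943 and 90152. Fcgr4, an activating receptor for antibody, had 205, 227 and 199.7 CPM in the WT libraries and 19.8, 20.2 and 20.4 in WT+AC. Its groups were separate (log2 -3.39, SE 0.11). The Fc receptors Fcgr1 (-2.48) and Fcgr3 (-2.20) fell too, whereas Csf1r, the receptor for the macrophage growth factor, was slightly higher (0.44, but -0.01 with the length correction), and Spi1, the lineage factor PU.1, was at 417 ± 19.5 and 454 ± 12.8 CPM (log2 0.12, edgeR adjusted p = 0.23).

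RNAs of the protein synthesis and respiratory machinery fell most uniformly. Of 50 ribosomal protein genes, 49 were lower and 47 past 2-fold (median -1.78, -1.28 length-corrected), and their share of counts was 4.26 to 4.38% in WT and 1.67 to 1.74% in WT+AC. The 1 exception, Rpl24, had 7, 7 and 4 counts in WT and 13, 23 and 12 in WT+AC, and near-identical pseudogenes can share its reads. Ribosomal protein genes have many processed pseudogenes, and that class took a larger share of counts with apoptotic cells, as given above. What part reassigned reads have in either value was not tested. Each of 31 nuclear genes for respiratory chain subunits was lower, 19 past 2-fold, with a median of -1.50 (-0.87 length-corrected). The medians of these lists stand beside -1.13 (-0.49 length-corrected) in the eighth of protein-coding genes with the shortest exonic length, so the correction leaves part of the length trend. Ndufa2 (log2 -2.46), Uqcrq (-2.27) and Cox4i1 (-1.92), of complexes I, III and IV, fell past 2-fold, as did Ndufa13 (-2.62). For glycolysis 7 of 27 genes were higher and 15 lower (median -0.46, -0.06 under total-count scaling). The hexokinase Hk2 rose (1.71) and the glucose transporter Slc2a1 had a change of 0.89, while Gapdh fell by 0.86. Of 16 housekeeping genes 14 were lower.

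Kif13b, the kinesin of the series title (chromosome 14, 64647265 to 64809617, plus strand), was higher with apoptotic cells in wild type cells. It had 35.9, 33.4 and 33.2 CPM in the WT libraries and 81.3, 77.6 and 81.5 in WT+AC, without overlap, for a log2 change of 1.23 (SE 0.09, edgeR adjusted p = 1.88e-12). With the length correction the change was 0.21 (edgeR adjusted p = 0.00371). Of 22 kinesin and dynein genes tested, 16 were higher and 5 lower, 5 and 3 past 2-fold, and their median moved from 0.83 to 0.05 with that correction. The axonal kinesin Kif5c (-2.66) and the light chain gene Klc4 (-1.59) fell under both fits. Chromatin modifiers, also long transcripts, had 21 of 29 higher and 4 lower, and a median of 1.27 that fell to 0.22. Their largest rise, in the Kdm6b named above, was 4.91 after correction.

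The other large falls were of varied function. Rgs2, a regulator of G protein signalling and known cAMP target, had 188, 242 and 251 CPM in the WT libraries and 5.33, 4.28 and 5.78 in WT+AC. Its log2 change was -5.46 (SE 0.14, edgeR adjusted p = 6.74e-23), with the WT libraries the more variable. Fbxo32, a ubiquitin ligase known from muscle atrophy, had 85.7, 77.5 and 75.7 CPM in the WT libraries and 1.83, 2.04 and 2.14 in WT+AC (log2 -5.31). The growth arrest gene Gadd45g (-4.68) fell with the stress genes Sesn1 (-3.61), Phlda3 (-2.75) and Trp53inp1 (-2.63), though the p53 target list as a whole had 13 of 28 higher and 12 lower. Its members that rose included Cdkn1a (1.18) and the caspase 8 inhibitor Cflar, at 39.6, 38.5 and 47.5 against 578, 553 and 607 CPM (3.79). Abundant falls were the plasma selenium carrier Selenop (-2.78), transferrin Trf (-2.67), the retinal reductase Dhrs3 (-2.67), the small GTPase Arl11 (-2.89), S100a1 (-2.80) and the inhibitory receptor Cd200r1 (-2.61). Among less abundant genes Sh2d1b1 (-4.40), Rab19 (-4.41), Tmem273 (-4.22), Ddit4l (-4.34), the antisense gene Plxna4os1 (-4.66) and the cytokine receptor Il21r (-3.89) fell. An abundant rise in no list was that of the endosome recycling gene Rab11fip1 (5.13).

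Some of the largest falls were in stromal and mesothelial genes. Upk3b (-4.98) and Nkain4 (-4.65), mesothelial markers, went with a summed mesothelial and epithelial level of 78.6 to 96.2 CPM in WT and 22.5 to 24.1 in WT+AC, with no marker at 0 in either group. Upk3b alone went from a mean of 31.3 to 0.985 CPM. Of 11 markers tested, 7 were lower and 2 higher, 5 and 2 past 2-fold. The epithelial gene Cdh1 had 4, 8 and 5 counts in WT and 49, 54 and 52 in WT+AC, and Epcam 2, 1 and 1 against 16, 12 and 13. Fibroblast and stromal markers summed to 1153 to 1413 and 629.9 to 684 CPM, with 12 of 19 tested lower and 6 higher. The secreted and matrix genes Dcn (-2.27), Mgp (-4.24), Angptl7 (-5.82), Ptn (-4.40) and Islr (-4.12) fell in the same libraries. The part that a different share of stromal cells has in these falls was not tested.

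**Figure D5:**
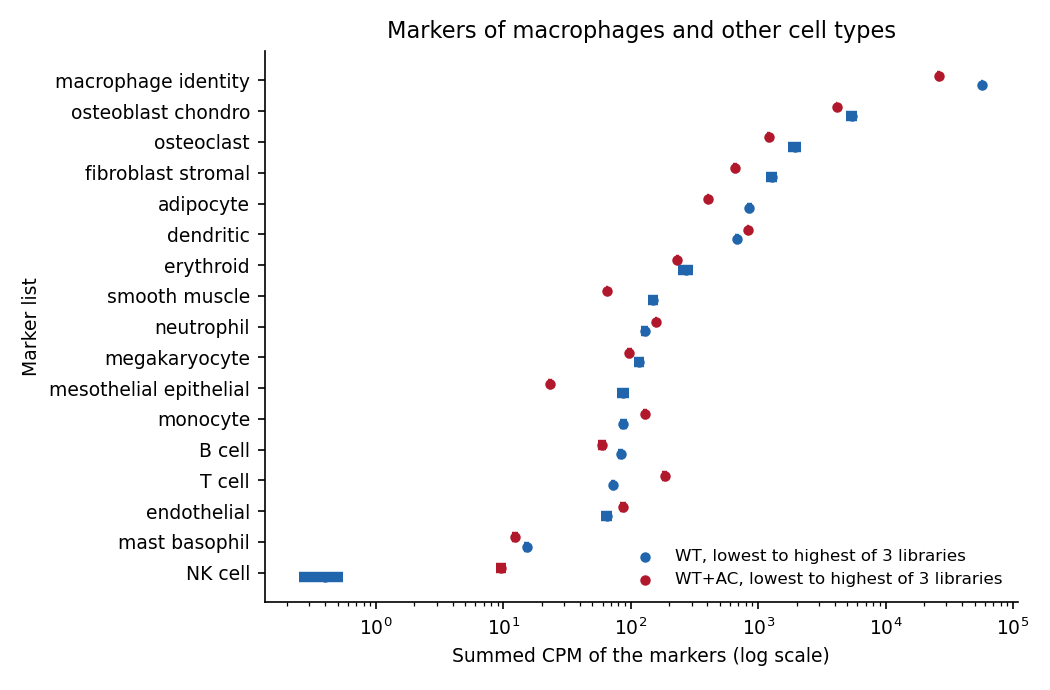
Summed CPM (log scale) of the markers of macrophages and of 16 other cell types, as the lowest to the highest of the 3 WT (blue) and 3 WT+AC (red) libraries, with points at the middle. T cell, NK cell, monocyte, dendritic, neutrophil and endothelial sums are higher with apoptotic cells. Most of the NK cell sum in WT+AC (8.79 to 10.4 CPM) comes from Eomes (mean 7.07 CPM). The remaining sums, those of macrophage, mesothelial and stromal markers among them, are lower, except the erythroid sum, whose ranges overlap. The osteoblast list is dominated by Spp1, a gene that macrophages also express. Most of the macrophage sum in WT comes from Lyz2 and Lgals3.

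T cell genes were higher with the apoptotic T cell line. The 31 T cell markers summed to 70.3 to 75.6 CPM in WT and 177 to 192 in WT+AC. In WT most of that sum came from Lat, Cd28 and Cd1d1, and the markers Cd3d, Cd6, Cd7, Cd8a, Bcl11b, Rag1, Rag2 and Ptcra were at 0. None of the 31 was at 0 in WT+AC. Of the 22 that passed the filter on low counts, several did so through WT+AC alone, so their count is no support. Among those with counts in all 12 libraries 9 were higher and 3 lower, with a median of 1.31. Lck, the proximal T cell receptor kinase, had 16, 10 and 11 counts in WT and 471, 569 and 525 in WT+AC. Zap70 had 1, 4 and 0 against 360, 476 and 443, and Lef1, a T lineage factor, 1, 0 and 0 against 510, 563 and 500. Cd3e had 1, 0 and 0 against 84, 91 and 75, while Cd3d reached at most 1 count in any library. The T lineage factor Bcl11b (at least 45.4-fold) and the T cell adaptor Skap1 (at least 74.5-fold) stood among the 15 largest rises, with 0 counts in every WT library. So did Gstp3 (at least 188-fold), the 7SL RNA genes Rn7s2 (116) and Rn7s1 (77.5), the opioid receptor gene Oprm1 (79.4), Stmn3 (64.3), Dsp (46.7), Slc4a10 (45.9), H2-Q2 (38.5) and Pin1rt1 (35.7). Gstp3, the 7SL genes, H2-Q2 and Pin1rt1 have near-identical copies, so their counts are uncertain. Myo7b, with 0, 0 and 1 counts against 504, 558 and 532, completes that set with Il1b, Il12a and Lef1. The part of Jurkat RNA in these rises, and in the 31788 to 32322 symbols with counts, was not tested.

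Kif13b itself had 19.1, 23.1 and 25.9 CPM in the libraries labelled KO, below the 33.2 to 35.9 CPM of WT. In the libraries labelled KO+AC it had 89.1, 88.4 and 89.5 CPM, above the 77.6 to 81.5 CPM of WT+AC, so the count of the targeted gene goes against the label there. Which exons a deletion covers is not given in the labels, so gene-level counts cannot tell a remaining transcript from an intact one. The comparison of responses below follows the labels and rests on that doubt. For most genes tested, no difference between the 2 responses passed the threshold. The interaction, the response of the libraries labelled KO minus that of WT, was called for 2132 of 16810 genes (12.7%), 1269 higher and 863 lower. Median responses in WT and in the libraries labelled KO were 2.52 and 2.53 for NF-kB genes, -0.97 and -0.93 for lysosomal genes and -1.09 and -0.75 for macrophage identity genes. The interaction was called for 8 of 21 NF-kB genes, all 8 higher in the libraries labelled KO, for 8 of 41 lysosomal genes and for 8 of 26 identity genes. The formyl peptide receptors Fpr1 and Fpr2, which guide cells toward damage signals, rose in WT by 2.12 and 2.56 and by more in the libraries labelled KO, with interactions of 2.86 and 2.17 (edgeR adjusted p = 9.77e-11 and 2.47e-06). Among the cytokine genes described above, Cxcl2 (interaction 1.46, edgeR adjusted p = 0.000615) and Tnf (0.58, 0.00679) had larger rises in the libraries labelled KO. Both started lower there, Cxcl2 at a mean of 1.08 CPM in KO against 2.74 in WT and Tnf at 10.3 against 14.4. With apoptotic cells the means were closer in ratio, at 1594 CPM in KO+AC against 1464 in WT+AC for Cxcl2 and 2006 against 1884 for Tnf. The interaction of Il1b (1.32, adjusted p = 0.0668) missed the threshold, and that of Mertk was 0.01 (SE 0.16). Leaving out single libraries moved the interaction counts by more than 1.5 times in several cases. The higher and lower counts were 697 and 432 without WT library 3, 761 and 505 without WT+AC library 2, 828 and 528 without KO+AC library 1, and 775 and 470 without KO+AC library 2. Without KO library 3 they were 2272 and 2058. The higher count was 728 without KO library 2, and the lower count was 571 without WT library 2 and 572 without WT+AC library 1.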

How the data were processed

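The authors deposited 2 tables of raw read counts per gene symbol, one for macrophages alone and one for macrophages with apoptotic cells. Per the submitters' processing notes, fastp, HISAT2 2.0.5, DESeq2 1.20.0 and the mouse build mm10 were used; which tool counted reads, with which strand setting and annotation, is not given in the sources used here. Antisense and overlapping genes are therefore uncertain. The tables hold 54957 and 55367 symbols, of which 54582 are shared and were analysed; the rest are not analysed here.

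All 12 libraries were fitted in 4 groups with edgeR 4.0.16 (R 4.3.3, filterByExpr, TMM factors, robust quasi-likelihood) on the counts as deposited, with Benjamini-Hochberg adjustment over the 16810 genes tested. A change past 2-fold was tested with glmTreat. CPM values use TMM-adjusted totals. DESeq2 1.42.0 and the other alternatives are given at the end. The length and GC correction used offsets fitted per library. Gene positions and lengths are of GRCm38. The fit was tested on simulated counts in which few genes changed, evenly up and down. Such a test cannot show how the normalization behaves where most genes change, as they did here. Folds against a group at 0 use a floor of 3 counts per library, and intervals and floors cover counting error only. Same-numbered libraries were not paired, so no block entered the fit.

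Named genes were the 15 largest rises and falls among called genes at 2 CPM or more whose groups do not overlap (leaving out predicted genes, clone names, pseudogenes, histones, receptor segments and ribosomal protein and mitochondrial genes), the 10 largest at 100 CPM or more, up to 4 members per list with the smallest p, Kif13b, Mertk and the 5 largest interactions each way, with list members added to complete a group. The members and lists were chosen with earlier results of these data known, and the promoter sets after their values were seen. Some list members are left out of the text and are not reported here.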

Additional observations from a re-analysis of the deposited data

Results flagged for a closer look

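Of the 2132 genes (12.7%) whose response differed between the genotypes by the interaction test (edgeR adjusted p under 0.05), 17 are given here, being those among the largest rises, falls and interactions under the naming rule and a few cytokine genes and Kif13b chosen after their values were seen. Other genes named in the text also passed. Each value is the response in the libraries labelled Kif13b-deficient minus that in wild type on the log2 scale. The Kif13b counts of the libraries labelled KO+AC go against that label (88.4 to 89.5 CPM, against 77.6 to 81.5 in WT+AC), and every direction here follows the labels. Among the largest rises and falls of the wild type response, the interaction was -0.97 for Angptl7, -0.76 for Gadd45g and -1.45 for Mgp, so each fell further in the libraries labelled deficient. The call for Mgp was lost without WT+AC library 3 (-1.001), and that for Angptl7 without WT library 3 (-0.91), WT+AC library 1 (-0.85) or 3 (-0.97), or KO+AC library 1 (-0.96) or 2 (-0.84). The chemokine gene Cxcl2 had 1.46 and rose further there, as did Tnf (0.58), Il1a (0.64) and Kif13b (0.74). Each of these started lower in KO than in WT, Cxcl2 at a mean of 1.08 against 2.74 CPM and Il1a at 16.1 against 22.5. With apoptotic cells Cxcl2 was at 1594 CPM in KO+AC against 1464 in WT+AC, and Il1a at 876 against 788. The call for Il1a was lost without WT library 2 (0.54) or 3 (0.60), WT+AC library 2 (0.61), KO library 2 (0.40) or KO+AC library 1 (0.60) or 2 (0.61). The 5 largest positive interactions under the naming rule were those of Plet1 (5.12), the formyl peptide receptor genes Fpr1 (2.86) and Fpr2 (2.17), the adhesion receptor gene Adgre4 (2.77) and Ms4a4a (2.49). Plet1 was listed at 0 CPM in the libraries labelled KO, against 0.183 CPM in wild type, so its value depends on the prior count of the fit and is no bound. Fpr1 stood at 10.1 CPM in wild type and 2.61 in the libraries labelled KO, and at 44.2 and 83.5 CPM with apoptotic cells. Adgre4 and Ms4a4a had no called response in wild type cells (log2 0.28 and 0.20) and rose in those labelled deficient (log2 3.05 and 2.69). Their wild type responses were called with the length correction (log2 0.62 and 1.38) and with total-count scaling (0.69 and 0.61). The 5 largest negative interactions were those of the Wnt antagonist gene Sfrp5 (-2.52), the serotonin receptor gene Htr2b (-2.14), the cadherin gene Cdh3 (-2.09), Nrn1 (-1.95) and Foxs1 (-1.85). Sfrp5, Cdh3 and Foxs1 fell in both genotypes and further in the libraries labelled deficient. Nrn1 rose in both and by less in those labelled deficient (log2 4.03 and 2.08). The cause of these differences was not tested.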

How the results depend on the processing

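Under DESeq2, DESeq2 size factors, total-count scaling, the 6 wild type libraries alone, counts in all 12 libraries, protein-coding genes alone, the length and GC correction and the replicate block, the counts of higher and lower genes stayed within 1.5 times of 8125 and 6161. Without a filter on low counts 13405 genes were higher, and under the 2-fold rule 5282 were higher and 2490 lower. Leaving out 1 library gave 8153 to 8479 higher and 6012 to 6106 lower, and for the interaction 697 to 2272 and 432 to 2058. The median over all genes turned to -0.014 among genes with counts in all 12 libraries. Same-numbered libraries did not deviate together (r 0.0089 to 0.0136), and the replicate block gave 8099 higher and 6147 lower. With the length and GC correction the sign turned for Csf1r (-0.014), Cyld (-0.48), Ikbkb (-0.76), Il18 (0.27), Npc1 (-0.077), Spp1 (0.49), Vegfc (0.11) and Adgre1 (0.14). With total-count scaling it turned for Vegfc (0.0089) and Adgre1 (0.23). The response of Ms4a4a, not called without the length correction or total-count scaling (1.38 and 0.61 with them), ran from -0.059 to 0.39 without single libraries, and was negative without WT library 1. The interaction of Mertk was -0.0057 under DESeq2 and ran from -0.16 to 0.091 without single libraries. For genes with under about 3 counts per library, depth limits what can be said to a bound. The causes of these changes were not tested.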

Other observations

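Some other gene groups are given here by their counts. Of 25 sterol synthesis genes, 7 were higher and 13 lower, and the median of -0.38 turned to 0.03 under total-count scaling. Of 23 genes of the endoplasmic reticulum protein folding response, 5 were higher and 17 lower (1 and 5 past 2-fold), with a median of -0.84 (-0.44 length-corrected, -0.43 under total-count scaling). Krüppel-like and other lineage factors had 22 of 29 members higher and 5 lower, 13 and 2 past 2-fold, with a median of 1.08 (0.58 length-corrected). Of 36 cell cycle genes, 18 were higher and 8 lower. Among all genes tested 48.3% were higher, and among 13136 protein-coding genes 5183 were higher and 5729 lower. Transcripts of the mitochondrial genome had 2 of 15 members higher and 9 lower, and their median of -1.09 moved to -0.08 with the length correction and to -0.68 under total-count scaling.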
